A study of Mus musculus with 12 samples.

Results

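The genes described here are 8 that encode antibody chains or proteins of the cells that make antibodies: the kappa light chain constant gene Igkc, the heavy chain constant genes Ighm, Ighg2c, Ighg2b and Igha, the joining chain Jchain, the chaperone cofactor Mzb1 and the B cell receptor subunit Cd79a. They were chosen by name, and all 8 were found among the 49315 genes of each file. Their levels were read in RNA sequencing of the quadriceps femoris, the extensor muscle of the thigh, from C57BL/6 mice, an inbred strain that carries Ighg2c in place of the Ighg2a of other strains. Young mice were 18 weeks and old mice 28 months of age. At each age 3 libraries came from mice left sedentary and 3 from mice put through 8 weeks of treadmill running, in 3 weekly sessions of 40 minutes at 8 to 12 m/min. Libraries carry the submitters' numbers: 1, 2 and 3 for young sedentary, 7, 8 and 10 for young exercised, and 4, 5 and 6 in both old groups. The labels do not say how many animals stand behind a library, and p-values therefore speak of the spread among the samples alone. In whole muscle, fewer cells of a type and less RNA per cell cannot be told apart.

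An antibody is built of paired heavy and light chains. Each chain joins a variable segment, chosen by DNA rearrangement from a large set, to a constant region. Naive B cells carry IgM, whose heavy chain is Ighm, on the surface together with the signalling subunits Cd79a and Cd79b. After activation a B cell can switch its heavy chain to an IgG, IgA or IgE constant gene, and as a plasma cell it secretes antibody in bulk. Jchain links IgM pentamers and IgA dimers, and Mzb1 helps fold heavy chains in the endoplasmic reticulum. Muscle fibres do not rearrange antibody genes, so antibody chains in muscle RNA are usually read as a sign of B lineage cells in the tissue or its blood.

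Total counts were 23.3 to 27.6 M per library. Levels are given as counts per 1 M counts (CPM) with TMM scaling (trimmed mean of M values) unless stated, a scale on which 3 counts correspond to 0.111 to 0.127 CPM. The 10 skeletal muscle markers summed to 131343 to 186854 CPM in every library. By Xist and the Y-linked genes, 5 libraries were female: young sedentary 1 and 3, young exercised 8 and 10, and old exercised 4. Adipoq, a hormone of fat cells, stood at 138 CPM in young sedentary library 1 and 104 CPM in old exercised library 6, against 3.65 to 26.0 CPM in the other 10 libraries. Old exercised library 6 also held the highest level of all 8 antibody genes, which was true of 11.1% of all tested genes, and the values of the antibody genes that rest on it are given with and without it.

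Igkc encodes the constant region of the kappa chain, which most mouse antibodies use, and lies on chromosome 6 from 70726435 to 70726966 on the plus strand (GRCm38, as in the files). Its level was 0.404, 0.156 and 0.258 CPM in young sedentary, 0.250, 0.199 and 0.972 CPM in young exercised, 18.9, 7.68 and 14.4 CPM in old sedentary, and 13.5, 9.09 and 295 CPM in old exercised libraries. All 6 old libraries lay above all 6 young ones, and old exercised library 6 lay 15.6-fold above the next highest. The mean of the old libraries was 160-fold that of the young libraries, and 34.1-fold without library 6. The files recorded 4 to 23 Igkc counts per young library, so the young level rests on few reads.

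Ighm, the constant gene of the IgM heavy chain (chromosome 12, 113418558 to 113422730, minus strand), was the only one of the 8 with a high level in young muscle. Its level was 43.4, 82.5 and 61.5 CPM in young sedentary, 98.7, 30.3 and 93.6 CPM in young exercised, 194, 189.6 and 202 CPM in old sedentary, and 192, 219 and 693 CPM in old exercised libraries. Every old library exceeded every young one, by 4.12-fold in the means and by 2.92-fold without library 6. The other 5 old libraries were close to each other, at 199 ± 11.8 CPM (mean ± SD, n = 5), whereas the young ones spread over 30.3 to 98.7 CPM.

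The balance between the mu heavy chain and the kappa chain differed between ages. Per kilobase of gene length, Ighm exceeded Igkc by 27.2- to 149-fold in the young libraries and by 2.90- to 6.96-fold in old libraries other than number 6. In old exercised library 6 the order was turned, with Igkc at 554 and Ighm at 367 CPM per kilobase, a ratio of Ighm to Igkc of 0.663. The young libraries thus held Ighm reads at 16.1 to 52.3 CPM per kilobase beside at most 1.83 CPM per kilobase of Igkc.

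Ighg2c (chromosome 12, 113285325 to 113288932, minus strand) encodes the heavy chain of IgG2c, the IgG subclass that interferon signals favour in this strain. Its level was 0.0404, 0.546 and 0.221 CPM in young sedentary, 1.67, 0.159 and 0.4224 CPM in young exercised, 17.4, 16.3 and 16.1 CPM in old sedentary, and 6.42, 21.5 and 35.3 CPM in old exercised libraries. The lowest old library lay above the highest young one, and library 6 exceeded the next highest by only 1.64-fold. The ratio of the old to the young mean was 37.0, and 30.5 without library 6. Ighg2c was therefore the member whose rise depended least on that library.

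Ighg2b, the IgG2b heavy chain (chromosome 12, 113302965 to 113307933, minus strand), was nearly absent from young muscle, with 1 count in young sedentary library 2, 1 in young exercised library 7 and 0 in the other 4. Old sedentary libraries held 46, 22 and 12 counts and old exercised libraries 8, 15 and 609, which is 0.327 to 1.71 CPM without library 6 and 23.5 CPM in it. Pooled over libraries, old exceeded young by 350-fold (95% interval 96.5 to 2894, counting error only), and by 60.9-fold (16.4 to 510) without library 6.

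Igha, the IgA heavy chain (chromosome 12, 113254830 to 113260236, minus strand), followed the same order, with 2 counts in young sedentary library 2, 4 in young exercised library 7 and 0 in the other young libraries. It reached 111, 28 and 10 counts in old sedentary and 8, 17 and 514 counts in old exercised libraries, or 4.12, 1.08, 0.416, 0.327, 0.660 and 19.8 CPM. The pooled ratio of old to young was 113 (51.5 to 308), and 34.3 (15.5 to 94.8) without library 6. For both genes every old library was above every young one, while the spread among old libraries was wider than for Ighg2c.

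Jchain (chromosome 5, 88519809 to 88527891, minus strand) was measured at 0.243, 0.390 and 0.148 CPM in young sedentary, 0.668, 0.318 and 0.465 CPM in young exercised, 5.87, 1.85 and 2.87 CPM in old sedentary, and 1.72, 2.37 and 37.2 CPM in old exercised libraries. Again the ages did not overlap, and the old mean was 23.3-fold the young mean, or 7.90-fold without library 6. Of the 8 genes, 6 thus had all old above all young libraries, an arrangement shown by 3.67% of all tested genes.

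Mzb1, on chromosome 18, did not follow this order. It was measured at 1.05, 0.897 and 0.627 CPM in young sedentary, 1.34, 0.556 and 0.760 CPM in young exercised, 1.15, 0.618 and 0.541 CPM in old sedentary, and 0.695, 0.621 and 4.71 CPM in old exercised libraries. Only library 6 stood out, and without it the old mean was 0.833 times the young mean. Cd79a (chromosome 7, 24897381 to 24902197, plus strand) was lower still, with 2 to 13 counts in each of the other 11 libraries and 48 counts, or 1.85 CPM, in library 6. Its young libraries, at 0.0738 to 0.292 CPM, overlapped the remaining old ones, at 0.0772 to 0.483 CPM.

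**Figure D1:**
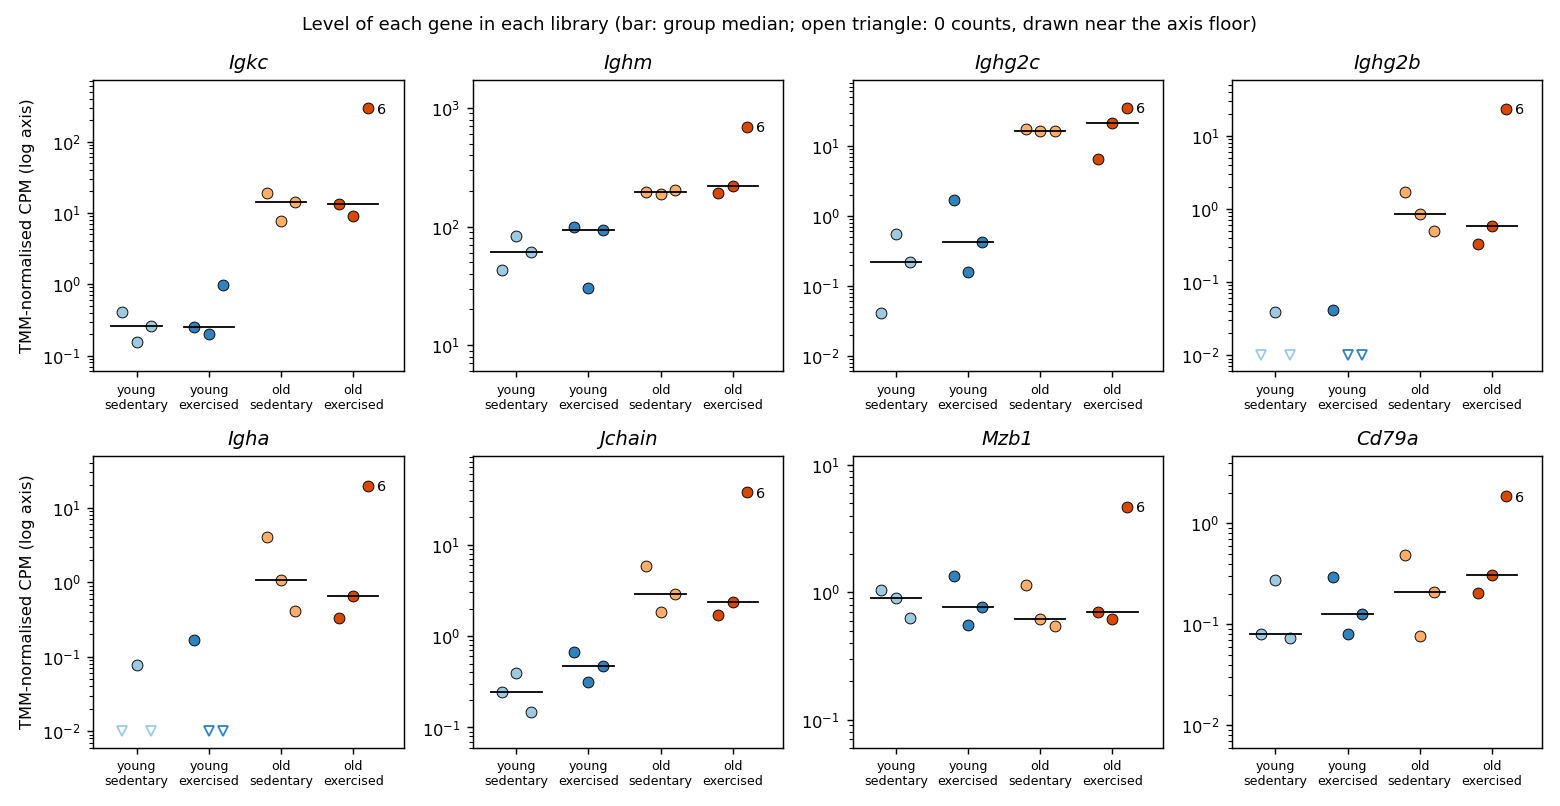
TMM-normalised CPM on a log axis for each of the 8 genes, 1 point per library in 4 groups of 3, with bars at the group medians above 0 and open triangles for libraries with 0 counts. For Igkc, Ighm, Ighg2c, Ighg2b, Igha and Jchain all old points lie above all young ones, whereas Mzb1 and Cd79a overlap except for old exercised library 6, which is marked.

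The age difference was tested with edgeR over all 15304 genes that passed the filter on low counts. Of the 8 genes, 7 passed that filter and Cd79a did not. Igkc, Ighg2b and Igha had fewer than 10 counts in most or all young libraries. They entered the test through the old libraries, where they are high, so a call of lower in old muscle was hardly open to them. Averaged over both treatments, 6 of the 7 tested genes were higher in old muscle at a Benjamini-Hochberg adjusted p under 0.05 and 0 were lower, against 8.92% of all tested genes called higher and 10.1% called lower. The log2 fold change from edgeR was 5.36 ± 0.621 (SE) for Ighg2c (adjusted p = 0.000701), 6.72 ± 1.21 for Igkc (adjusted p = 0.00685) and 1.98 ± 0.411 for Ighm (adjusted p = 0.0115). The same edgeR fit gave 4.29 ± 0.927 for Jchain (adjusted p = 0.0131), 7.31 ± 1.70 for Ighg2b (adjusted p = 0.0179) and 6.40 ± 1.57 for Igha (adjusted p = 0.0219). The folds of Ighg2b and Igha depend on the prior count that edgeR adds, since their young counts were near 0. Mzb1 did not pass, at 0.52 ± 0.509 (edgeR adjusted p = 0.523). The median log2 fold change was 5.36 over the 7 genes and -0.01 over all tested genes.

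Without old exercised library 6 the same 6 genes passed, with smaller folds. By edgeR the log2 fold change was then 5.10 for Igkc (adjusted p = 0.000193), 5.07 for Ighg2c, 5.23 for Ighg2b, 4.50 for Igha, 2.91 for Jchain and 1.56 for Ighm (adjusted p = 0.0118), and that of Mzb1 turned to -0.28. Sex was unevenly mixed with age. With sex as a term in the edgeR model, 2 genes passed, Ighg2c at a log2 fold change of 4.53 (adjusted p = 1.88e-05) and Ighg2b at 6.05 (adjusted p = 0.0473), while the other 4 lay at adjusted p = 0.0514 to 0.0887. Among female libraries the single old one had 13.5 CPM of Igkc against 0.199 to 0.972 CPM in the 4 young ones. Among male libraries the 5 old ones had 7.68 to 295 CPM against 0.156 and 0.250 CPM in the 2 young ones. Restricted to males, an alternative added after seeing the data, Ighg2c alone passed edgeR (log2 fold change 4.27, adjusted p = 0.0186).

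**Figure D2:**
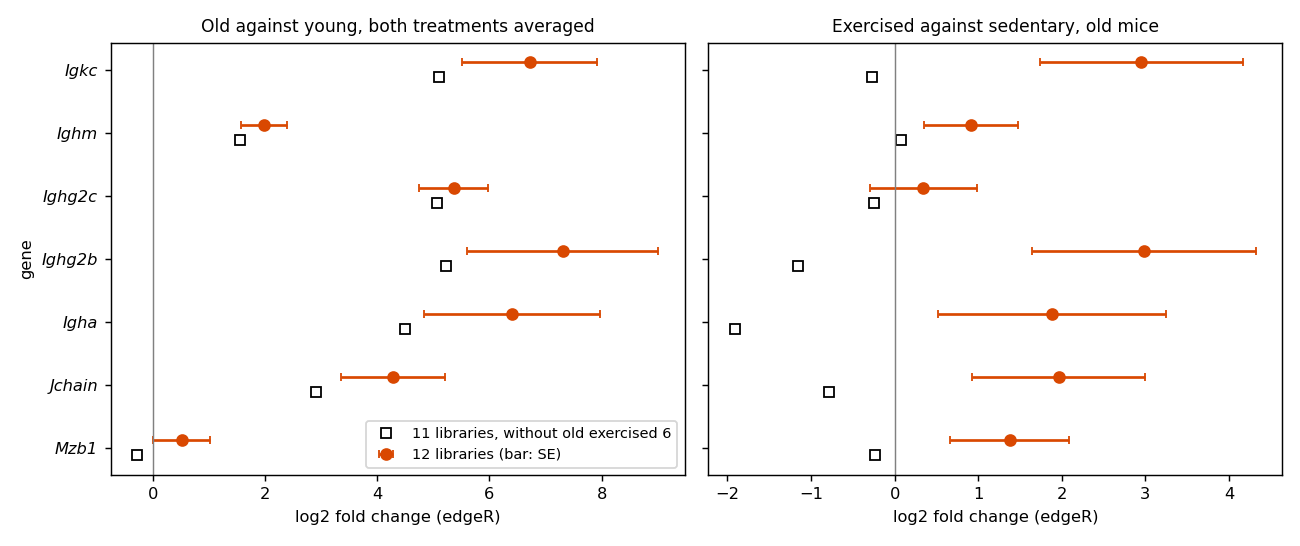
Log2 fold changes by edgeR of the 7 tested genes, for old against young muscle (left) and for exercised against sedentary old muscle (right), with filled circles and SE bars for 12 libraries and open squares for 11 libraries. On the left, 6 genes stay well above 0 without old exercised library 6. On the right, 6 of the 7 genes lie below 0 without it, and Ighm lies at 0.07.

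Read within each treatment, the age difference was called for fewer genes. In sedentary mice 1 of 7, Ighg2c, passed edgeR (5.91 ± 0.930, adjusted p = 0.00809), where 4.46% of all genes were called higher. The fitted differences of Igkc (5.63 ± 1.76, edgeR adjusted p = 0.0802), Igha (5.94), Ighg2b (5.85), Jchain (3.75) and Ighm (1.65) did not pass, with edgeR adjusted p of 0.0802 to 0.183. The spread in this fit is shared by all 12 libraries. When old exercised library 6 was left out of it, 6 of the 7 passed in sedentary mice with nearly the same folds, Igkc at 5.63 (edgeR adjusted p = 0.00148). That refit held no sex term. All old sedentary libraries were male, whereas young sedentary libraries 1 and 3 were female, so sex and age were mixed in this comparison. Over all tested genes, edgeR called 315 to 1719 in either direction with 1 library left out, against 1538 with all 12.

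In exercised mice 5 of 7 passed edgeR, all higher in old muscle, against 4.60% of all genes. They were Ighg2c (4.81 ± 0.824, adjusted p = 0.00902), Igkc (7.80 ± 1.69, adjusted p = 0.0246), Ighm (2.31), Ighg2b (8.77) and Jchain (4.82), the last 3 with edgeR adjusted p of 0.0396 to 0.0440. Igha reached 6.86 ± 2.08 (edgeR adjusted p = 0.0728) and Mzb1 1.18 ± 0.706 (edgeR adjusted p = 0.338). This count fell to 1, Ighg2c, when young exercised library 7, 8 or 10 was left out, and stood at 4 without old exercised library 6. The folds in exercised mice also rested in part on that library. Without it the log2 fold changes by edgeR were 4.57 for Igkc (adjusted p = 0.00433), 4.22 for Ighg2c, 4.62 for Ighg2b, 2.07 for Jchain (adjusted p = 0.0417) and 3.06 for Igha, and Ighm, at 1.47, no longer passed (adjusted p = 0.101).

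Running was the other comparison. In old mice 0 of the 7 genes passed edgeR for exercised against sedentary muscle, against 0.582% of all genes. At an unadjusted p under 0.05 were 1314 of all 15304 tested genes and, of the 7, Igkc alone. Its log2 fold change was 2.95 ± 1.22 (edgeR adjusted p = 0.561), and those of Ighg2b, Jchain, Igha, Mzb1, Ighm and Ighg2c were 2.98, 1.96, 1.88, 1.37, 0.91 and 0.35. These values rested on 1 library. Without old exercised library 6 they were -0.28 for Igkc, -1.16 for Ighg2b, -1.92 for Igha, -0.79 for Jchain, -0.23 for Mzb1, -0.25 for Ighg2c and 0.07 for Ighm, and 0 passed. In each of the exercise comparisons limma voom called 0 of the 7 and DESeq2 0 of the 5 to which it gave an adjusted p.

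In young mice 0 of 7 passed edgeR for exercise, against 0.0131% of all genes. At an unadjusted p under 0.05 were 1996 of all 15304 tested genes and 0 of the 7. Their log2 fold changes were 0.04 to 1.44 with edgeR adjusted p of 0.632 to 0.998, and the sedentary and exercised ranges overlapped for each gene. The difference between the responses of old and young mice passed edgeR for 0 of 7 genes as well, against 0.0523% of all genes. Differences ran from -1.10 to 2.92, with edgeR adjusted p of 0.562 to 0.957. At an unadjusted p under 0.05 were 2352 of all 15304 tested genes and 0 of the 7. For Igkc the difference between the responses was 2.17 ± 2.97, an error wide enough that a sizeable difference could not have been detected.

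The old libraries differed in which switched heavy chain they held. Among the counts of the 6 switched constant genes (Ighg2c, Ighg2b, Ighg1, Ighg3, Igha and Ighe), Ighg2c made up 74.3%, 89.2% and 94.2% in old sedentary libraries 4, 5 and 6 and 88.7% and 94.5% in old exercised libraries 4 and 5. In old exercised library 6 it made up 42.2% (95% Clopper-Pearson interval 40.2 to 44.4, of 2166 counts). There Ighg2b took 28.1% (26.2 to 30.1), against 2.56 to 7.30% in the other old libraries, and Igha 23.7% (22.0 to 25.6), against 2.43 to 17.6%. The intervals of library 6 did not overlap those of any other old library for Ighg2c and Ighg2b. For Igha the nearest was old sedentary library 4, with an interval of 14.7 to 20.8%.

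The same library held 100 counts of Ighg1, the IgG1 heavy chain, and 15 of Ighe, the IgE heavy chain. Ighg1 had 2 counts in old sedentary library 4 and 0 in the remaining 10 libraries, and Ighe had 0 in all 11. Per kilobase, Ighg2c exceeded Ighg2b and Igha in every old library, at 26.6 against 8.78 and 7.43 CPM per kilobase in library 6 and at 13.1 against 0.638 and 1.55 in old sedentary library 4. The size of these gaps depends on annotated length, which is 1326 bases for Ighg2c, 2678 for Ighg2b and 2668 for Igha. In counts, library 6 held 915, 609 and 514 of them. Igkc made up 84.8 to 98.2% of light chain constant counts in the 6 old libraries, the remainder being lambda. The lambda gene Iglc1 was higher in old muscle by edgeR averaged over treatments (log2 fold change 4.77 ± 1.36, adjusted p = 0.0358), with 66, 20 and 3 counts in old sedentary, 1, 2 and 111 in old exercised and 0 to 2 in each young library. It passed in neither treatment alone (edgeR adjusted p of 0.181 in sedentary and 0.124 in exercised mice), and the average did not pass without library 6 (2.51 ± 1.16, edgeR adjusted p = 0.169). Iglc1 also entered the test through old libraries alone.

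**Figure D3:**
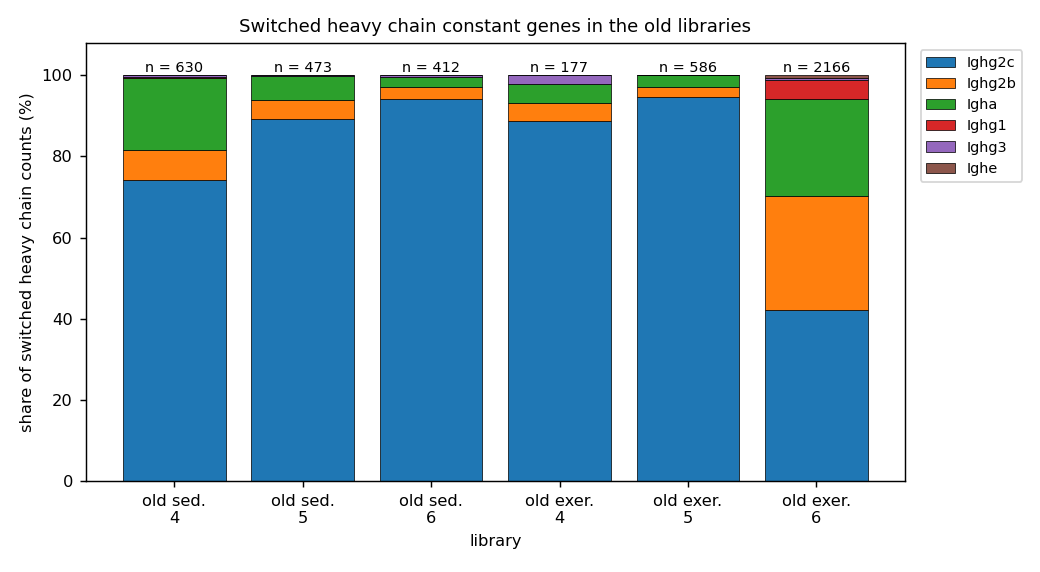
Share of switched heavy chain counts taken by each constant gene in the 6 old libraries, as stacked bars in percent, with the number of counts above each bar. Ighg2c takes 74.3 to 94.5% in 5 libraries and 42.2% in old exercised library 6, where Ighg2b and Igha take most of the rest.

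The IgG genes are near copies of each other, so reads can be shared between them. Over their aligned transcripts Ighg2c was 87.8% identical to Ighg2b, 79.3% to Ighg1 and 78.7% to Ighg3, and 70.8% to Igha. The longest run shared by Ighg2c and Ighg2b was 78 bases, in exon 3, and a read within it cannot be assigned to either. They differ most visibly in the hinge, the short exon 2 between the first and second constant domains, which is shown because reads across it separate the subclasses. The sequences below are those of the GENCODE M21 transcripts (GRCm38, minus strand of chromosome 12), 5′ to 3′, with capitals for bases that differ from or are missing in Ighg2c.
Ighg2c, chr12:113288263-113288325: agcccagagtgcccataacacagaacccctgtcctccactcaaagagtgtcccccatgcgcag
Ighg2b, chr12:113307261-113307326: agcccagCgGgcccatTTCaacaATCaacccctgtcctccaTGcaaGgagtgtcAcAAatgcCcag
Ighg1, chr12:113329844-113329882: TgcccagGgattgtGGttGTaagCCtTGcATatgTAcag
The Ighg2b hinge had 15 such bases among 66 and the Ighg1 hinge 14 among 39.

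Constant genes show how much antibody RNA there was, and variable segments show how varied it was. The files list 348 variable segments (185 Ighv, 160 Igkv and 3 Iglv), of which 163 had at least 1 count. The 6 young libraries held 58 counts on them in all, 7 to 19 each. The old libraries held 148 to 621 counts each without old exercised library 6, which held 7382. Of these segments 5 passed the filter on low counts and 0 passed edgeR for old against young (adjusted p of 0.0502 to 0.174). At an unadjusted p under 0.05 were 4 of the 5, against 5043 of all 15304 tested genes. Young counts were too few for any of the 5 to pass the filter without the old libraries, where they are high.

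The kappa segment with the most counts was the same one in 4 of the 6 old libraries. Igkv3-2 (chromosome 6, 70698449 to 70699067, plus strand) had 0 counts in 5 young libraries, 2 in young exercised library 7, 12, 49 and 123 in old sedentary and 17, 41 and 2885 in old exercised libraries. It took 52.6% of all Igkv counts in old exercised library 6 (Clopper-Pearson interval 51.3 to 53.9, of 5483), 53.0% (46.4 to 59.6) in old sedentary library 6 and 45.8% (36.1 to 55.7) in old sedentary library 5. It also led in old exercised library 5, at 21.7% (16.0 to 28.3). The other 2 old libraries were led by other segments. Igkv6-15 held 48.0% (42.8 to 53.2) in old sedentary library 4, where Igkv3-2 held 3.22%, and Igkv4-55 held 39.3% (32.0 to 47.0) in old exercised library 4.

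Old exercised library 6 was thus rich in antibody counts but not uniformly so. Its next kappa segments were Igkv4-68 at 338 counts and Igkv4-55 at 186, and Igkv4-68 had 0 to 2 counts in each other old library. At an equal depth of 107 Igkv counts it held an expected 26.1 different segments, against 15.6 to 23.4 in the other old libraries. Heavy chain segments did not show this, since at 31 Ighv counts library 6 held an expected 15.4, within the 7.43 to 17 of the other old libraries. Among heavy chain segments Ighv1-53 led it with 431 of 1730 counts, or 24.9% (22.9 to 27.0). Ighv1-53 also led old exercised library 4 (58.7%, 47.9 to 68.9, of 92 counts) and old sedentary library 5 (35.5%, 19.2 to 54.6, of 31 counts). Ighv1-81 led old sedentary library 4 at 34.3% (27.3 to 41.8, of 175 counts).

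**Figure D4:**
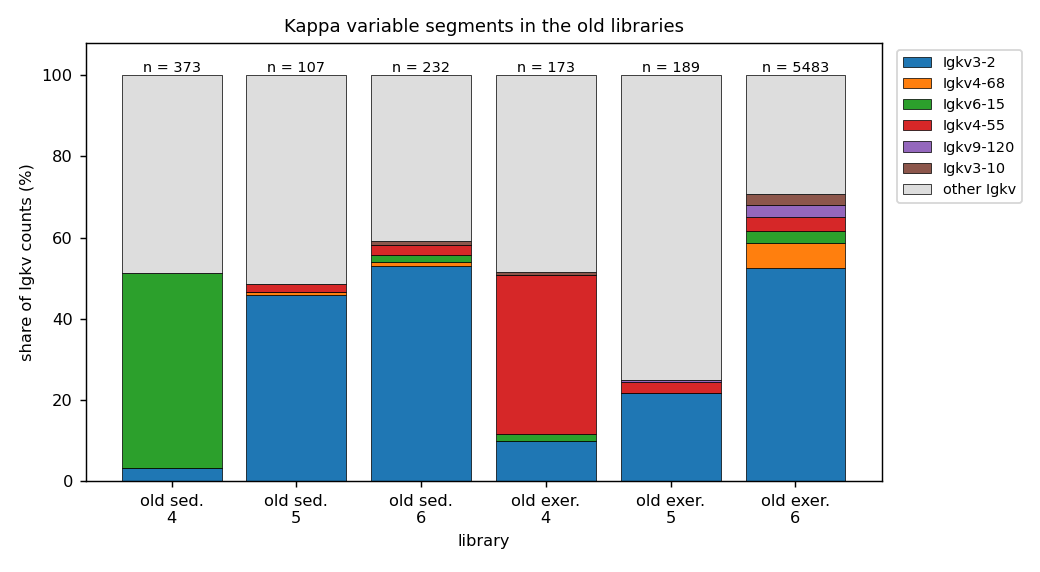
Share of Igkv counts in the 6 old libraries taken by the 6 segments with the most counts, as stacked bars in percent, with the number of Igkv counts above each bar. Igkv3-2 takes 45.8 to 53.0% in old sedentary libraries 5 and 6 and old exercised library 6, while Igkv6-15 leads old sedentary library 4 and Igkv4-55 leads old exercised library 4.

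Igkv3-2 has close relatives, and its share rests on telling them apart. Over aligned transcripts it was 91.3% identical to Igkv3-5, with a longest shared run of 86 bases, and 91.1% identical to Igkv3-10, with a longest shared run of 61. To Igkv6-15 and Igkv4-55 it was 65.4% and 69.2% identical. In old exercised library 6 Igkv3-5 had 104 and Igkv3-10 had 151 counts, against 2885 for Igkv3-2. The stretch of 150 bases with the most differences lies in exon 2 of Igkv3-2, chr6:70698912-70699061 on the plus strand of GRCm38. It is printed from the GENCODE M21 transcripts, 5′ to 3′, with capitals for bases that differ from Igkv3-2. These are germline reference sequences, whereas the antibody genes of a B cell can also carry somatic mutations.
Igkv3-2: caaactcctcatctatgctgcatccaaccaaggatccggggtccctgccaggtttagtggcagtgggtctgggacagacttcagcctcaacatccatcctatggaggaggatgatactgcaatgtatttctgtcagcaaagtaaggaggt
Igkv3-5: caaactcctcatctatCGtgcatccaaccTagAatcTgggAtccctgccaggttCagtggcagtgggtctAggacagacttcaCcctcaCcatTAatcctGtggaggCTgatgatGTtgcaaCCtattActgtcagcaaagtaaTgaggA
Igkv3-10: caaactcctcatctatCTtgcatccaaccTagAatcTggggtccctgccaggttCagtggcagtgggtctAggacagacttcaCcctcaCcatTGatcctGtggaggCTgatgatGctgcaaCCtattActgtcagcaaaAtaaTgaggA
Igkv3-5 differed at 22 and Igkv3-10 at 21 of the 150 bases.

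Jchain and Cd79a are the 2 of the 8 genes with a promoter window in the RefSeq table used here (GRCm38.p6, 250 bases before to 50 after the start). The octamer ATGCAAAT, the site of Oct factors in antibody gene promoters, was searched on both strands. It was found in 1.74% of 32851 such windows and in neither of these 2. The Jchain window, chr5:88527848-88528147 on the minus strand, is printed because Jchain rose with the constant genes.
Jchain: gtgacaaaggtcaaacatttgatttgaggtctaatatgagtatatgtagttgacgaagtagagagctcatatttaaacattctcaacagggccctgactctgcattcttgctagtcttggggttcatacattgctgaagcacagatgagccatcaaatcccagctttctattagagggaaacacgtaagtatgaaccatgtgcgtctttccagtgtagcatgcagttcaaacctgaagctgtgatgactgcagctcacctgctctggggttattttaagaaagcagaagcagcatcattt
It holds no capitals because no match was found in this window.

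Other genes of plasma cells were not called with the antibody chains. Of 22 further plasma cell genes in the files, 19 were tested and 0 passed edgeR in either direction for old against young averaged over treatments, with a median log2 fold change of 0.04. At an unadjusted p under 0.05 were 6 of the 19 (4 higher, 2 lower), against 5043 of all 15304 tested genes. Herpud1, of the endoplasmic reticulum stress response, was higher in old than in young sedentary muscle (0.37 ± 0.0952, edgeR adjusted p = 0.0319). Ell2, an elongation factor that favours secreted antibody mRNA, was lower in old than in young exercised muscle (-0.46 ± 0.130, edgeR adjusted p = 0.0448, and 0.0725 without library 6). Its counts were 1140 to 1612 in young exercised and 887 to 1094 in old exercised libraries. Sedentary libraries held 765 to 855 when young and 912 to 1055 when old. Xbp1, the transcription factor of secretory cells, lay at 50.9 to 89.3 CPM in young and 70.3 to 116 CPM in old libraries. Many of these genes are also active in muscle fibres and other cells.

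Old exercised library 6 was the highest for 7 of these 22 genes. Of the genes named next, chosen after their values were seen, some stood out in it and others did not. Pou2af1, a coactivator of antibody genes, had 83 counts there and 0 to 6 elsewhere, and Derl3, of the degradation machinery of the endoplasmic reticulum, had 45 and 0 to 8. Tnfrsf17, the plasma cell survival receptor BCMA, had 1 count in library 6 and 0 to 5 elsewhere. Sdc1, the plasma cell surface marker CD138, had 69 there, 782 in young sedentary library 2 and 42 to 94 elsewhere. Young sedentary library 2 also held 3506 counts of the skin keratin Krt5, against 0 to 5 in the others. The part of skin in its values was not tested. The 22 genes summed to 425 CPM in library 6 and 313 to 396 CPM in the other 11.

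Many of the B cell markers were close to the limit of detection. Of 24 genes 10 were tested and 0 passed edgeR in any of the 6 comparisons, with a median log2 fold change of 0.50 for old against young averaged over treatments. At an unadjusted p under 0.05 there were 1 to 5 of the 10 per comparison, against 1314 to 5043 of all 15304 tested genes. The 24 genes summed to 15.9 to 30.9 CPM in young libraries, 16.5 to 20.9 CPM in 5 old ones and 35.1 CPM in old exercised library 6. The young maximum was that of young sedentary library 2, the one with much Krt5. Ly6d, named after its values were seen, had 292 counts there and 0 to 19 in the others. Ebf1, which fat cells and other stromal cells also express, made up 8.61 to 19.2 CPM of the sum over the 12 libraries, and 12.3 CPM in library 6. Library 6 was the highest for 20 of the 24. Named after their values were seen, Cd22 had 58 counts there against 0 to 9 elsewhere, Ms4a1 34 against 0 to 11, and Pax5 23 against 0 to 6.

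A chemokine for B cells rose together with the antibody chains. Cxcl13, which draws B cells into lymphoid follicles, was at 0.323, 0.507 and 0.185 CPM in young sedentary, 0.376, 0.278 and 0.634 CPM in young exercised, 1.89, 3.09 and 1.17 CPM in old sedentary, and 2.09, 1.63 and 10.3 CPM in old exercised libraries. All old libraries exceeded all young ones, and library 6 was again the highest. By edgeR its log2 fold change for old against young averaged over treatments was 3.01 ± 0.540 (adjusted p = 0.00395), and 2.35 ± 0.342 without library 6 (adjusted p = 0.00166). It was 1 of 2 tested genes among the 11 lymphoid stroma genes in the files. Cxcl13 had fewer than 10 counts in most young libraries, so it too passed the filter through old ones. Of 12 tested genes for plasma cell homing and survival, 0 rose and 1, the chemokine Ccl25, fell when averaged over treatments (-0.42 ± 0.112, edgeR adjusted p = 0.0225). In that comparison 8.92% of all tested genes were called higher and 10.1% lower. Tnfsf13b, the survival factor BAFF, rose in old exercised against young exercised muscle (1.65 ± 0.341, edgeR adjusted p = 0.0121), whereas in sedentary mice the same comparison gave -0.35 ± 0.326 (edgeR adjusted p = 0.524). It had 11 to 17 counts in young sedentary, 5 to 7 in young exercised, 11 to 12 in old sedentary and 17 to 25 in old exercised libraries.

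Receptors that bind antibodies were compared next. Of all tested genes, edgeR called 8.92% higher and 10.1% lower in old against young muscle averaged over treatments. Of 8 tested genes for antibody receptors and transport, 0 rose and 2 fell in this comparison, with a median of -0.20. They were Fcgrt, the neonatal Fc receptor that protects IgG from breakdown (-0.50 ± 0.0787, edgeR adjusted p = 0.0015), and Fcrls, an Fc receptor-like gene of macrophages (-1.09 ± 0.182, edgeR adjusted p = 0.00203). Fcgrt lay at 39.5 to 50.5 CPM in young and 30.0 to 39.2 CPM in old libraries.

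Markers of other tissues were compared with the antibody levels across libraries. The 12 adipocyte genes summed to 4492 CPM in old exercised library 6 and 5641 CPM in young sedentary library 1, against 931 to 3416 CPM elsewhere. Of 11 tested, 0 passed edgeR in any comparison over the 12 libraries. At an unadjusted p under 0.05 were 0 to 3 per comparison, against 1314 to 5043 of all 15304 tested genes. Without library 6 the hormone gene Lep was lower in old muscle averaged over treatments (-2.64 ± 0.748, edgeR adjusted p = 0.0462). Young sedentary library 1, with the highest Adipoq level of all, had 0.404 CPM of Igkc, within the young range. By rising Adipoq, the old libraries were exercised 5, sedentary 5, exercised 4, sedentary 4, sedentary 6 and exercised 6. Their Adipoq was 3.65, 3.82, 9.45, 11.2, 26.0 and 104 CPM, and their Igkc 9.09, 7.68, 13.5, 18.9, 14.4 and 295 CPM. The 2 old libraries with the least Adipoq thus had the lowest Igkc among the old ones. The age difference of the 6 genes was called without library 6 as well, as given above. The part of fat tissue in the values of library 6 was not tested. The 11 lymphoid stroma genes summed to 68.4 CPM in library 6 and 58.5 to 107 CPM elsewhere. Of these, 2 were at 0 in all 12 libraries, and library 6 was the highest for 2.

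**Figure D5:**
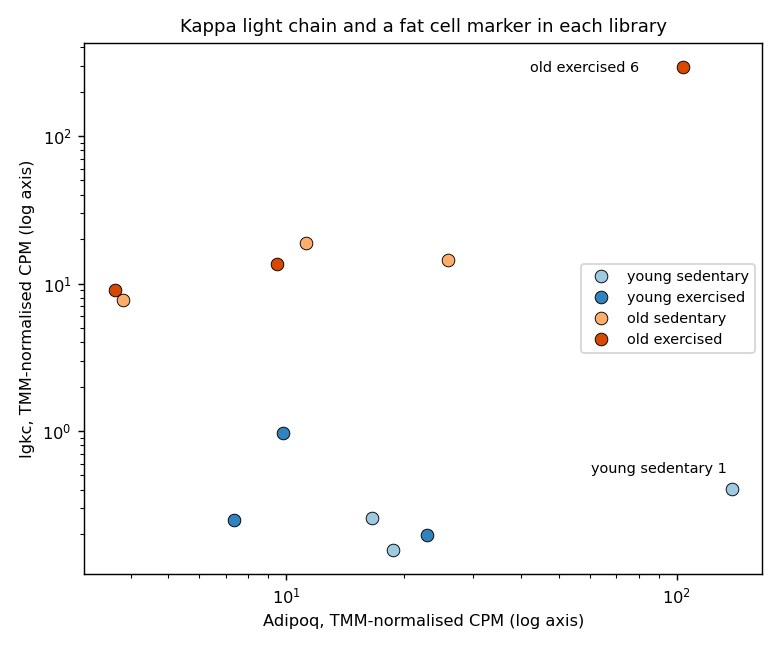
Igkc against the fat cell marker Adipoq in each of the 12 libraries, both as TMM-normalised CPM on log axes, coloured by group. The 2 libraries with the most Adipoq, young sedentary 1 and old exercised 6, lie far apart in Igkc (0.404 and 295 CPM).

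Blood genes were compared as well. Averaged over treatments, edgeR called 4 of 7 tested erythroid genes higher in old against young muscle, and 8.92% of all tested genes. Hba-a2 was among the 4 (1.74 ± 0.463, edgeR adjusted p = 0.0316), and the median log2 fold change of the 7 was 1.74. Without library 6, 0 of the 7 passed edgeR (5 at an unadjusted p under 0.05), with Hba-a2 at 1.79 ± 0.508 (adjusted p = 0.0505). The list summed to 78.1 to 282 CPM in young and 103 to 1194 CPM in old libraries. The old library with the most haemoglobin, old exercised 4, at 646 CPM of Hbb-bs, had 13.5 CPM of Igkc and the lowest Ighg2c of the old libraries. Old sedentary library 4, with the least Hbb-bs among the old libraries (56.4 CPM), had 18.9 CPM of Igkc. The part of blood in the antibody values was not tested. Of the 16 T and natural killer cell genes 2 were tested and 0 passed edgeR in the average. At an unadjusted p under 0.05 was 1 of the 2, against 5043 of all 15304 tested genes. The 16 genes summed to 1.96 to 5.72 CPM in young and 3.61 to 10.4 CPM in old libraries.

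The genes whose levels were most like the 7 tested antibody genes were found by Pearson's r between log2 CPM (prior count 0.5) and the mean log2 CPM of the 7, outside the immunoglobulin loci, as a description that largely shares the step between ages. Over the 12 libraries Ctxn3 came first (r = 0.959), followed by Bcas2, Tmem8, Eif3m, Map1lc3a, Atp6v1d, Cxcl13 (r = 0.951), Tmbim1, Rab14 and Zcchc24 (r = 0.946). Ctxn3, a small membrane protein, lay at 13.3 to 26.0 CPM in young and 37.1 to 101 CPM in old libraries. Of these 10, Cxcl13 was the only gene of the immune lists. Over 11 libraries, without old exercised library 6, the first were Map4 (r = 0.986), Zdhhc18 and Psmc3, then Ctxn3, Cacng1, Htatip2, Psmd4, Psmb3, Eda2r and Cdc123 (r = 0.968). Ctxn3 was the only gene on both lists. Eda2r, a receptor of the tumour necrosis factor family, lay at 9.21 to 15.1 CPM in young and 45.4 to 75.1 CPM in old libraries.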

How the data were processed

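RNA of 12 muscle libraries was measured. The deposited values are whole-number counts per gene, which the authors made with featureCounts, per the file headers. The tools named by the submitters' processing notes are STAR 2.5.2b, Trimmomatic 0.36, bcl2fastq 2.20.0.422, Subread 1.5.2 and DESeq2, on GRCm38. Not given in the sources used here are the annotation release, the strand setting and how multimapping reads were counted, which leaves counts of near-identical immunoglobulin genes and of overlapping genes uncertain. No lab batch is named in the labels, and the extraction used Trizol on snap-frozen muscle, per the labels.

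Symbols were matched to 48970 of 49315 gene identifiers. The steps in edgeR 4.0.16 (R 4.3.3) were filterByExpr (minimum count 10, minimum total 15), TMM scaling, and robust quasi-likelihood F tests on a model of the 4 groups over 12 libraries (8 residual degrees of freedom). The filter kept genes that reached the minimum in any 3 libraries, so genes high in old libraries alone also passed. Benjamini-Hochberg adjustment ran over 15304 genes, with a threshold of 0.05. SE was taken as |log2 fold change| over the square root of F. CPM per kilobase uses the length column of the files. Intervals of shares are 95% Clopper-Pearson intervals, and those of pooled ratios are exact conditional binomial ones, both for counting error only. Transcripts were compared by global alignment in Biopython 1.88. The test was also run on simulated counts, whose outcome is not used here. They held no library like old exercised 6 and no sex difference, so they do not bear on calls that depend on either. Alternatives used DESeq2 1.42.0 and limma 3.58.1 voom, other scalings and filters, a sex term, fewer groups and libraries left out. The refit of list genes without old exercised library 6 was added after seeing the data.

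The members and gene lists were chosen with earlier results of these data known. Genes named were the 8 members, list genes past the threshold (up to 3 per list and comparison) or else the most abundant, the leading variable segments and the 10 most alike genes. Others are said to be named after their values were seen, as are the single tissue markers Adipoq, Hbb-bs, Xist, Ighg1 and Ighe. Libraries with the same number in the 2 old groups were not treated as pairs.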

Additional observations from a re-analysis of the deposited data

How the results depend on the processing

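Of the alternatives, Ighg2c passed in all 22 for old against young averaged over treatments (edgeR, DESeq2 or limma adjusted p up to 0.0186), Ighm in 20, Jchain in 19 of 22, Igkc in 18 and Ighg2b in 16 of the 21 that gave an adjusted p, and Igha in 12 of 22. All 6 stayed higher in old muscle in each of them. Igha lost its call by edgeR without young sedentary library 1, 2 or 3 or young exercised library 7, 8 or 10 and without a filter on low counts, and Ighg2b without young sedentary library 1 or 2 or young exercised library 7. The cause was not tested. The number of members past the threshold, 6 in this comparison, was 2 with limma voom, 2 with the sex term, 1 with male libraries only and 4 to 6 when 1 library was left out. In sedentary mice it was 1, and became 2 without robust estimation, 4 with DESeq2 (Wald test), 5 with only the groups compared, 4 without both fat-rich libraries (young sedentary 1 and old exercised 6, added after seeing the data) and 1 to 6 with 1 library left out. In exercised mice it was 5, and became 2 without a filter, 2 with voom, 0 with only the groups compared, 1 with the sex term, 3 without both fat-rich libraries and 1 to 6 with 1 library left out. For exercise in young mice, in old mice and for their difference it was 0 in every alternative. Over all tested genes edgeR called 2, 89 and 8 in these comparisons, DESeq2 242, 216 and 438, and limma voom 6, 99 and 3. For age the number of all genes called in either direction was 2918 in the average, 1538 in sedentary and 1511 in exercised mice. Over the alternatives it ranged from 361 to 3469, 315 to 2314 and 615 to 2111.

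The sign turned for exercise in old mice without both fat-rich libraries, at -0.28 for Igkc, -0.25 for Ighg2c, -1.16 for Ighg2b, -1.92 for Igha, -0.79 for Jchain and -0.24 for Mzb1 on the log2 scale, much as without old exercised library 6 alone. Leaving out 1 library gave -0.28 to 3.48 for Igkc, -0.25 to 0.78 for Ighg2c, -1.16 to 3.59 for Ighg2b, -1.92 to 3.21 for Igha, -0.79 to 2.55 for Jchain and -0.23 to 1.79 for Mzb1. Mzb1, which was called in no comparison, also turned for age: in sedentary mice it ranged from -0.56 to 0.0504 with 1 library left out and was 0.0244 without the fat-rich libraries, in exercised mice -0.42 to 1.62 and -0.42, and averaged over treatments -0.28 to 0.74, -0.20 without the fat-rich libraries and -0.0365 with the sex term. Depth limits Cd79a, Ighg2b, Igha and the variable segments most, since young libraries held few or 0 counts of them.

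With a replicate block for numbers 4, 5 and 6 over the 6 old libraries, 0 members passed for exercise, and Igkc stood at 1.22 (edgeR adjusted p = 0.921). The correlations of same-numbered libraries' deviations were -0.0989, 0.0416 and 0.0718, so the numbers were not taken to pair the libraries.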

Other observations

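Other immune cell genes changed with age in their own directions. Averaged over treatments, edgeR called 4 of 12 tested macrophage genes lower and 1 higher in old against young muscle. Of all tested genes 10.1% were called lower and 8.92% higher, and the median log2 fold change of the 12 macrophage genes was -0.25. Those that fell included Lyve1 (-0.86 ± 0.129, edgeR adjusted p = 0.00116) and Mrc1 (-0.80 ± 0.149, edgeR adjusted p = 0.00422), both markers of resident macrophages, while the lysosomal Cd68 rose (0.89 ± 0.226, edgeR adjusted p = 0.0188). The neutrophil genes S100a8 (3.25 ± 0.823, edgeR adjusted p = 0.0199) and S100a9 (3.50 ± 0.840, edgeR adjusted p = 0.0166) rose as well, S100a8 with 128 counts in old exercised library 6 and 0 to 36 in the others. Without that library they stood at 2.64 (edgeR adjusted p = 0.0296) and 2.74 (edgeR adjusted p = 0.0238). In sedentary mice alone neither passed, at 0.35 for S100a8 (edgeR adjusted p = 0.842) and 1.99 for S100a9 (edgeR adjusted p = 0.277). Young libraries held 0 to 24 counts of S100a8 and 0 to 13 of S100a9. Both genes passed the filter on low counts through old libraries, so a call of lower in old muscle was hardly open to them. Of 9 tested genes of antigen presentation by MHC class II, 0 passed edgeR in any comparison. At an unadjusted p under 0.05 were 0 to 3 per comparison, against 1314 to 5043 of all 15304 tested genes. Cd3e, a T cell receptor subunit, rose in old sedentary muscle (1.69 ± 0.430, edgeR adjusted p = 0.0335), with 131 to 235 counts there and 24 to 81 in young sedentary libraries, whereas the partner subunits Cd3d and Cd3g had 0 to 7 counts in those libraries. In exercised mice the difference of Cd3e had the opposite sign and did not pass (-1.08 ± 0.436, edgeR adjusted p = 0.148), with 25 to 60 counts in old and 67 to 118 in young libraries, and the average was 0.30 (edgeR adjusted p = 0.531). S1pr2, listed with germinal centre genes, fell averaged over treatments (-0.54 ± 0.142, edgeR adjusted p = 0.0216). Tlr7 was lower in old than in young exercised muscle (-1.38 ± 0.370, edgeR adjusted p = 0.0358), with 10 to 34 counts against 45 to 62. Sedentary libraries held 27 to 34 counts of Tlr7 when young and 19 to 34 when old.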
